A study of Homo sapiens with 4 samples.

Results

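N6-methyladenosine (m6A) is a methyl mark on adenosines inside messenger RNA. Writers deposit it, erasers remove it, and reader proteins bind marked transcripts and change their splicing, export, translation or decay. Its machinery was followed here through 10 genes chosen by name: the writer subunits METTL3, METTL14 and WTAP, the erasers ALKBH5 and FTO, and the readers YTHDF1, YTHDF2, YTHDF3, YTHDC1 and IGF2BP2. The choice was made with earlier results of these data known. All 10 were found among the 35767 rows of the deposited count table, and all passed the filter on low counts that left 20098 genes for testing.

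The libraries came from SAS, an established tongue squamous carcinoma line, and were sequenced as mRNA. The comparison was between 2 groups of 2 libraries. The control group (siControl) carries the genotype label WT, and the other group (siNAT10) was labelled as receiving siRNA against NAT10, the RNA cytidine acetyltransferase. The genotype is given as NAT10 knockdown in siNAT10 replicate 1 and NAT11 knockdown in siNAT10 replicate 2, and the labels give no dose or time. The titles number the samples of a group as biological replicates but do not say whether they came from separate cultures. P-values therefore rest on a spread between libraries that may be technical. Total counts ranged from 30794757 to 36341785.

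Libraries labelled siNAT10 held no less NAT10 transcript than the controls. Replicates 1 and 2 of siControl stood at 240.4 and 231 CPM (counts scaled to the effective library size), those of siNAT10 at 253 and 248 CPM. The change, in log2 units with its standard error (SE), was 0.09 ± 0.06 (edgeR adjusted p = 0.293). Every direction below is thus that of the libraries labelled siNAT10 against siControl. Of 11 squamous epithelial markers, 10 were analysed and 6 had at least 1 CPM in every library, led by DSP and KRT17, while KRT5, TP63 and DSG3 were under 1 CPM in every library. The summed squamous markers were at 3282 to 3343 CPM in siControl and 2629 to 2711 CPM in siNAT10. Of 7 fibroblast markers, 5 were under 1 CPM in every library, with sums from 30.7 to 37.7 CPM, mostly COL1A1. Leukocyte markers summed to between 50.6 and 54.1 CPM, nearly all CD68, with the pan-leukocyte gene PTPRC at most 0.105 CPM, and the 3 endothelial markers summed to between 2.52 and 3.76 CPM. The part of these markers in the results was not tested.

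Of the 10 m6A genes, 3 differed between the groups. The catalytic writer METTL3 and the cytoplasmic reader YTHDF1 were higher in the libraries labelled siNAT10, and the reader IGF2BP2 was lower. The test was edgeR's quasi-likelihood test with Benjamini-Hochberg adjustment over all 20098 genes, and a gene was called at an adjusted p under 0.05. These 3 called members are 30% of the 10, against 40.4% of all tested genes, of which 19.7% were called higher and 20.7% called lower. A call was thus no more frequent among the m6A genes than in the whole table. The median log2 fold change was 0.04 over the members and -0.01 over all tested genes. The CPM of the 2 groups did not overlap for 6 of the 10 members, against 69.5% of all tested genes.

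**Figure D1:**
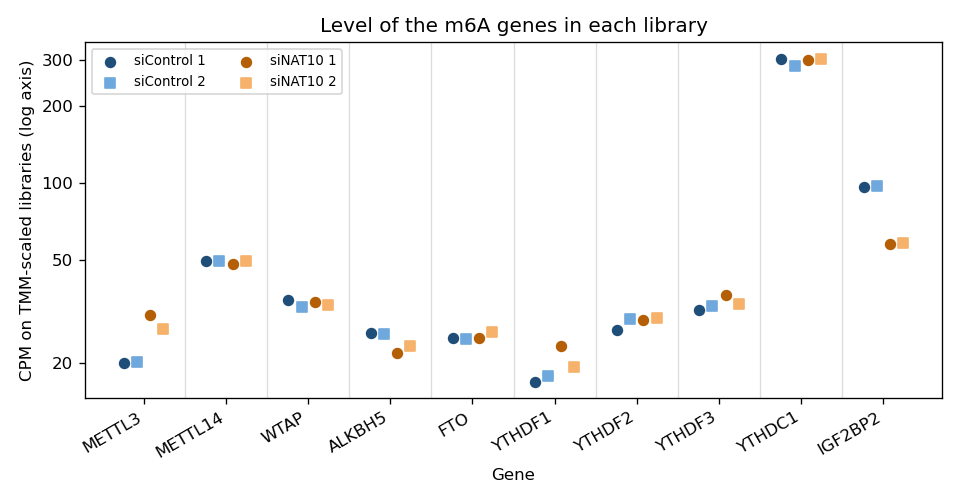
Level of each of the 10 m6A genes in the 4 libraries, as CPM on TMM-scaled library sizes on a log axis. Circles are replicate 1 and squares replicate 2, blue for siControl and orange for siNAT10. IGF2BP2 drops from 96.8 and 97.5 to 57.7 and 58.4 CPM, METTL3 rises from 20.01 and 20.07 to 30.7 and 27.1 CPM, and most other genes lie close together in all libraries.

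Of the 3 writer subunits, METTL3 passed the test and METTL14 and WTAP did not. METTL3, which carries the active site and binds the methyl donor, was at 20.01 and 20.07 CPM in siControl and at 30.7 and 27.1 CPM in siNAT10, replicate 1 first here and throughout. Both siNAT10 libraries lay above both siControl libraries, and the siControl values were nearly equal. METTL3 rose 1.44-fold, or 0.53 ± 0.09 on the log2 scale (SE, 2 libraries a group, edgeR adjusted p = 1.45e-04). METTL3 lies on chromosome 14 from 21498133 to 21511375 on the minus strand (GRCh38, as in the deposited table). Over 6.58% of its exonic bases it overlaps TOX4 on the opposite strand, whose counts were 1051 and 995 in siControl and 894 and 842 in siNAT10.

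METTL14, the RNA-binding partner that forms a heterodimer with METTL3, had 49.9 and 49.6 CPM in siControl and 48.5 and 49.5 CPM in siNAT10. All 4 values lie close together, with a log2 difference of -0.02 ± 0.07 (edgeR adjusted p = 0.838, 95% interval -0.18 to 0.13). The METTL14 gene is on chromosome 4 from 118685368 to 118715433. WTAP, the adaptor that holds the dimer in nuclear speckles, had 35.2 and 33.0 CPM in siControl and 34.4 and 33.4 CPM in siNAT10, with overlapping groups (-0.01 ± 0.08, edgeR adjusted p = 0.962, interval -0.18 to 0.17). WTAP (chromosome 6, 159725585 to 159756319) shares 7.5% of its exonic bases with SOD2 on the opposite strand. SOD2 had 4694 and 4662 counts in siControl and 2927 and 2311 in siNAT10, and its part in the WTAP value was not tested.

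Neither eraser passed the threshold. ALKBH5, a nuclear iron-dependent demethylase, had 26.1 and 25.8 CPM in siControl and 21.8 and 23.2 CPM in siNAT10. The groups did not overlap, and the log2 difference was -0.20 ± 0.09 (edgeR adjusted p = 0.0784, interval -0.39 to -0.02 before adjustment). With libraries scaled by their totals alone, ALKBH5 was called lower (-0.32, edgeR adjusted p = 0.00833, range over 11 alternatives 0.00833 to 0.367). That scaling moves the median of all genes to -0.12, so that about this much of each change under it is shared with the median gene. ALKBH5 (chromosome 17, 18183078 to 18209954) overlaps the opposite-strand row RP11-258F1.1 over 11.2% of its exonic bases. That row had 279 and 272 counts in siControl and 183 and 169 in siNAT10, and its part in the ALKBH5 value was not tested.

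FTO, a demethylase of m6A and of the related cap-adjacent mark, had 24.9 and 24.6 CPM in siControl and 24.8 and 26.3 CPM in siNAT10. The groups overlapped (0.04 ± 0.09, edgeR adjusted p = 0.729, interval -0.14 to 0.23), and the sign turned to -0.07 with library totals alone. FTO lies on chromosome 16 from 53701692 to 54158512.

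The readers went in both directions. IGF2BP2, which binds marked mRNAs through its KH domains and is known for stabilising them, had 96.8 and 97.5 CPM in siControl and 57.7 and 58.4 CPM in siNAT10. Replicates agreed closely, and a gap of 38.4 CPM separated the groups. IGF2BP2 fell 1.67-fold, with a log2 difference of -0.74 ± 0.07 (SE, 2 libraries a group, edgeR adjusted p = 5.57e-08). Its absolute change was at least as large as that of 82.3% of tested genes, and that of METTL3 as large as 70.3%. The IGF2BP2 gene spans chromosome 3 from 185643739 to 185825056 on the minus strand, with no other row overlapping its exons. METTL3 and IGF2BP2 kept direction and call in all 11 alternatives, with log2 fold changes from 0.42 to 0.62 and from -0.85 to -0.73.

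YTHDF1, a cytoplasmic reader first described as a promoter of translation, had 16.8 and 17.7 CPM in siControl and 23.3 and 19.2 CPM in siNAT10. Both siNAT10 libraries were above siControl, but they differed from each other by more than the gap between the groups, which was 1.57 CPM. YTHDF1 rose 1.24-fold, or 0.31 ± 0.11 on the log2 scale (SE, 2 libraries a group, edgeR adjusted p = 0.0262). The call was lost without siNAT10 replicate 1 (0.16, edgeR adjusted p = 0.362), without siControl replicate 1 (0.27, 0.0606), with library totals alone (0.20, 0.15) and in DESeq2 (0.31, 0.0696), within a range of adjusted p over 11 alternatives from 0.00651 to 0.362. YTHDF1 lies on chromosome 20 from 63195429 to 63216234.

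The paralogs of YTHDF1 did not pass. YTHDF2, the reader that recruits deadenylation, had 26.8 and 29.5 CPM in siControl and 29.3 and 29.7 CPM in siNAT10, with overlapping groups (0.07 ± 0.09, edgeR adjusted p = 0.566, interval -0.11 to 0.25). YTHDF3, the third cytoplasmic paralog, had 32.1 and 33.2 CPM in siControl and 36.8 and 33.8 CPM in siNAT10. The siNAT10 values lay above siControl by only 0.589 CPM at the nearest points (0.11 ± 0.08, edgeR adjusted p = 0.30, interval -0.06 to 0.29). YTHDC1, the nuclear reader tied to splicing and export, had 304 and 286 CPM in siControl and 301 and 305 CPM in siNAT10. It overlapped between groups (0.04 ± 0.06, edgeR adjusted p = 0.661, interval -0.09 to 0.17). YTHDF2 lies on chromosome 1 (28736621 to 28769775), YTHDF3 on chromosome 8 (63168553 to 63212786) and YTHDC1 on chromosome 4 (68310387 to 68350089).

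**Figure D2:**
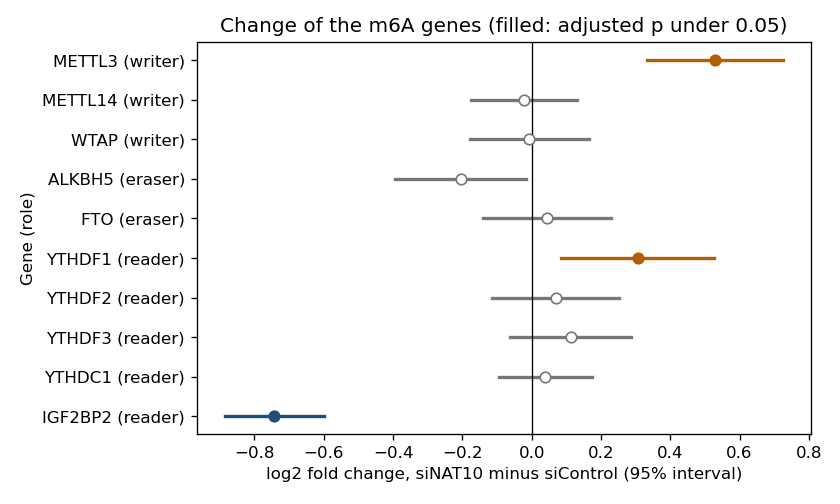
Log2 fold change of each m6A gene, siNAT10 minus siControl, with its 95% interval before adjustment. Filled points passed an adjusted p of 0.05 (orange higher, blue lower), open points did not. METTL3 (0.53) and YTHDF1 (0.31) lie to the right, IGF2BP2 (-0.74) to the left, and the interval of ALKBH5 (-0.20) ends just under 0.

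The members that were not called had narrow intervals. These are before adjustment, under TMM scaling, and rest on a spread between libraries that may be technical. Apart from ALKBH5, the other 6 had log2 fold changes from -0.02 to 0.11, and no interval of the 7 uncalled members reached beyond -0.39 or 0.29. Changes as large as those of METTL3 or IGF2BP2 lay outside these intervals. For these members, changes inside the intervals could not be resolved with 2 libraries a group. In a bulk sample, a lower level can come from less RNA per cell or from fewer cells that express the gene, and these cannot be told apart.

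METTL3 and IGF2BP2 moved furthest in opposite directions, so the stretch upstream of each RefSeq start site is shown. Each is 200 bases, ending 50 bases before the start, read 5′ to 3′ on the minus strand of GRCh38.p14. The METTL3 window is chr14:21511391-21511590 and the IGF2BP2 window chr3:185825093-185825292. Capitals mark matches, on either strand, to CCAAT (the CCAAT box), GGGCGG (the GC box), CACGTG (the E-box), TGACG (the core of a CRE) and TATAAA (the TATA box), which do not overlap one another here.
METTL3: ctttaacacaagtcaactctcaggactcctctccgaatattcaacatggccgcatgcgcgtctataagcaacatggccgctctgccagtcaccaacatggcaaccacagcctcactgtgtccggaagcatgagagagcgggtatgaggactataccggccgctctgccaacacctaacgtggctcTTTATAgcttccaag
IGF2BP2: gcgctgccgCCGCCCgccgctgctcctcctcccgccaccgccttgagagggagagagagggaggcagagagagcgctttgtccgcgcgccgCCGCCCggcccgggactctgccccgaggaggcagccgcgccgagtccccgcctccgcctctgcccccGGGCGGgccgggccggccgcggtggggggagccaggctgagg

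The IGF2BP2 window had 80.5% G and C and 3 GC boxes, and the METTL3 window had 53% G and C, no GC box and 1 match to the TATA box on the reverse strand. Over 35116 RefSeq promoter windows of the same length, the median was 57.5% G and C. A GC box was present in 35% of these windows, a TATA box in 7.63%, a CCAAT box in 27.4%, a CRE core in 16% and an E-box in 4.51%. Windows were found for 9 of the 10 members, all but YTHDF3, and YTHDF1, also called higher, had 77.5% G and C with 2 GC boxes and 1 E-box. These matches describe the letters only, and the counts do not show which start site was used.

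Levels were next compared between the genes per length, as CPM divided by the kilobases of exon in the deposited table. YTHDC1 was the highest of the 10 at 40.6 to 43.4 CPM per kb over the 4 libraries. IGF2BP2 was second, with 20.4 and 20.6 CPM per kb in siControl and 12.2 and 12.3 in siNAT10. Below them came ALKBH5 (6.82 to 8.17), YTHDF2 (6.94 to 7.71) and METTL14 (7.07 to 7.28), whose ranges over all libraries overlap. WTAP (5.66 to 6.04), YTHDF1 (5.08 to 7.05) and YTHDF3 (5.20 to 5.96) likewise overlapped one another. The YTHDF1 range also overlapped those of ALKBH5, YTHDF2 and METTL3, with YTHDF1 (7.05) above ALKBH5 (6.82) in siNAT10 replicate 1. METTL3 had 3.40 and 3.41 CPM per kb in siControl and 5.20 and 4.60 in siNAT10. FTO was the lowest, at 1.15 to 1.23 CPM per kb, and its deposited length of 21379 bases over 33 exon blocks is the longest of the 10. The span from YTHDC1 to FTO was 36.1-fold on this scale. The length counts every exon of every isoform, so a gene with long unused exons is placed too low.

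Ratios within a library do not depend on the scaling between libraries. The ratio of METTL3 to METTL14, the subunits of the heterodimer, was 0.467 and 0.471 in siControl and 0.736 and 0.638 in siNAT10, on CPM per kb. The siNAT10 libraries thus both had more METTL3 transcript per METTL14 transcript than either control. WTAP stood at 1.78 and 1.66 times METTL3 in siControl and at 1.14 and 1.25 times in siNAT10. ALKBH5 was 7.01 times FTO in both siControl libraries and 5.87 and 5.92 times in siNAT10, so the balance of the 2 erasers was lower in both. With 2 libraries against 2, an exact two-sided permutation test cannot go below 1 in 3, and no test was run on these ratios.

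**Figure D3:**
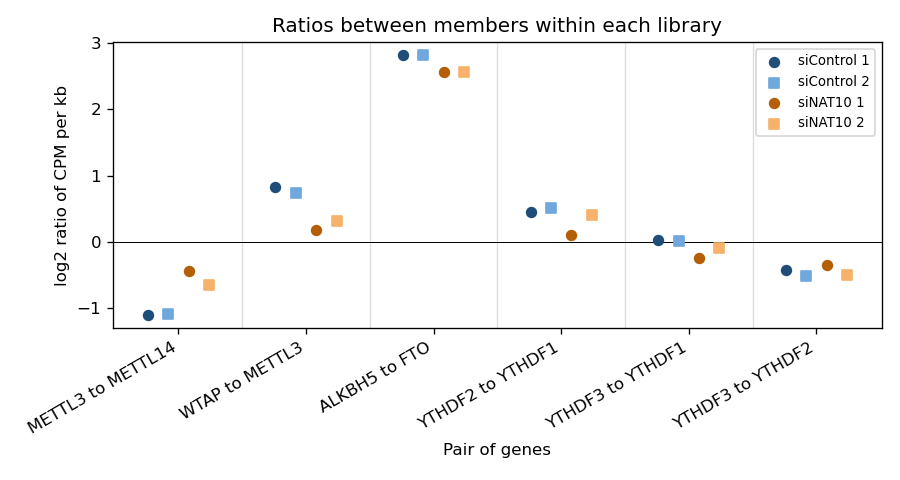
Log2 ratio of CPM per kb between pairs of m6A genes in each library, with circles for replicate 1, squares for replicate 2, blue for siControl and orange for siNAT10. The METTL3 to METTL14 ratio is near -1.10 and -1.09 in siControl and -0.44 and -0.65 in siNAT10, and the groups overlap for the YTHDF3 to YTHDF2 ratio. METTL3 and YTHDF1, both called, recur among the pairs, and how often other gene pairs overlap was not computed.

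Among the 3 cytoplasmic YTH readers, YTHDF2 was 1.37 and 1.43 times YTHDF1 in siControl and 1.08 and 1.32 times in siNAT10. YTHDF3 was 1.02 and 1.01 times YTHDF1 in siControl and 0.846 and 0.94 times in siNAT10. The balance between YTHDF3 and YTHDF2 overlapped between the groups, at 0.75 and 0.704 in siControl and 0.785 and 0.711 in siNAT10. Summed over the paralogs, the level was 17.2 and 18.4 CPM per kb in siControl and 20.6 and 19.0 in siNAT10.

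Within the IGF2BP family, IGF2BP3 was called higher beside the lower IGF2BP2. IGF2BP1 and IGF2BP3, which share the RNA-binding domains of IGF2BP2, were singled out after their values were seen. IGF2BP3 had 71.4 and 67.5 CPM in siControl and 88.7 and 87.7 CPM in siNAT10, and rose by 0.35 ± 0.07 on the log2 scale (edgeR adjusted p = 4.86e-04). It went up in both siNAT10 libraries while IGF2BP2 went down in both. IGF2BP3 shares 17.9% of its exonic bases with MALSU1 on the opposite strand. MALSU1 had 978 and 978 counts in siControl and 1102 and 829 in siNAT10, and its part in the IGF2BP3 value was not tested. IGF2BP1 had 45.2 and 38.7 CPM in siControl and 37.2 and 37.8 CPM in siNAT10 and was not called (-0.16 ± 0.09, edgeR adjusted p = 0.145), but was called lower without siControl replicate 2 (-0.27, 0.013) and with library totals alone (-0.27, 0.0175), within a range of adjusted p from 0.013 to 0.752. Per length, IGF2BP2 made up 60.5% and 62.9% of the summed family in siControl and 45.7% and 46.0% in siNAT10. The sum itself was 33.8 and 32.8 CPM per kb in siControl and 26.7 and 26.8 in siNAT10.

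Beyond the 10 genes, 53 others of the pathway were read from the same test in 8 lists. The lists were also drawn up with earlier results of these data known, so their shares called are not an unbiased comparison with the whole table. Of these, 20 were called higher and 7 lower, with a median log2 fold change of 0.01. The share called was 50.9%, against 40.4% in the whole table, where 19.7% were called higher and 20.7% lower. With library totals alone the counts were 12 higher and 16 lower, and without siNAT10 replicate 2 they were 11 and 7. The genes named from each list are the called members with the smallest adjusted p, and RBM15B, MAT2A, CNOT1, SRSF3, HMGA2, IGF2BP1 and IGF2BP3, which were chosen after their values were seen.

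The partners that dock onto METTL3, METTL14 and WTAP held 2 genes that were called higher under every setting tried, ZC3H13 and KIAA1429. Of 5 such genes, 4 were called higher and none lower, or 80% called against 40.4% of all tested genes. Their median log2 fold change was 0.32. With library totals alone 2 were called higher and 1 (RBM15B) lower, and without siNAT10 replicate 2 the counts were 2 and 0. ZC3H13, a zinc finger scaffold that keeps the complex in the nucleus, had 356 and 365 CPM in siControl and 510 and 439 CPM in siNAT10 (0.40 ± 0.07, edgeR adjusted p = 1.75e-04). KIAA1429 (now VIRMA), a large scaffold of the complex, had 94.9 and 95.4 CPM in siControl and 122 and 125 CPM in siNAT10 (0.37 ± 0.07, adjusted p = 1.48e-04). Both were clear of their controls in each library and kept the call in all 11 alternatives. CBLL1 (HAKAI), a ubiquitin ligase of the complex, rose by 0.32 ± 0.08, with the call lost without siNAT10 replicate 2 (edgeR adjusted p = 0.0907) and with library totals alone (0.052), within 0.00158 to 0.0907. RBM15, an RNA-binding adaptor, passed narrowly (0.21 ± 0.08, adjusted p = 0.0424), and lost the call in 8 of 11 alternatives. These were each library left out (adjusted p from 0.0739 to 0.202), library totals alone (0.346), DESeq2 (0.0921), no count filter (0.0671) and the replicate block (0.0573). Its paralog RBM15B stood at 93.3 and 94.0 CPM in siControl and 87.9 and 90.4 CPM in siNAT10. RBM15B did not pass (-0.07 ± 0.07, edgeR adjusted p = 0.43), but was called lower with library totals alone (-0.18, edgeR adjusted p = 0.0354). It shares 20% of its exonic bases with DCAF1 on the opposite strand. DCAF1 had 3481 and 3301 counts in siControl and 4215 and 3422 in siNAT10, and its part in the RBM15B value was not tested.

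**Figure D4:**
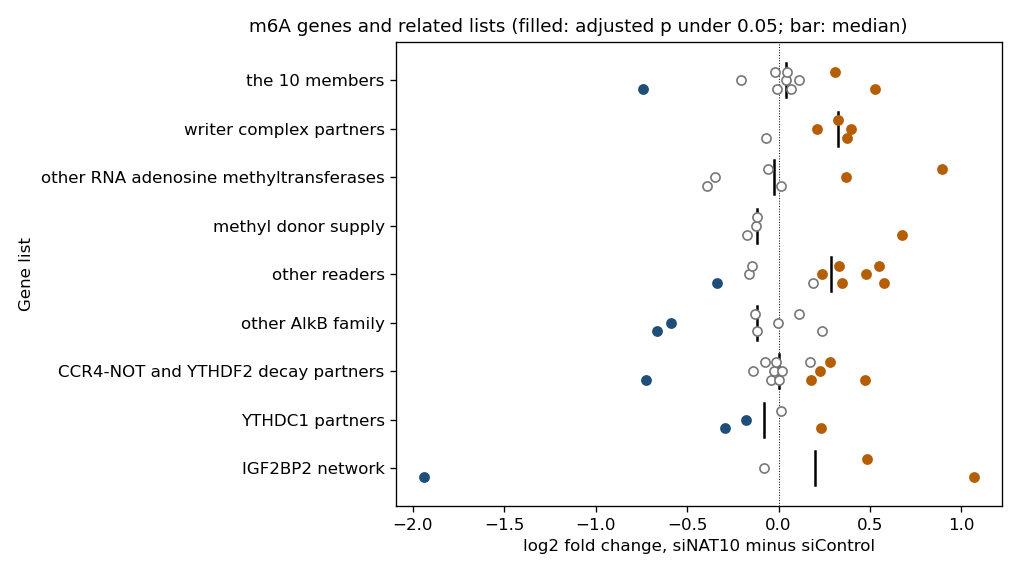
Log2 fold change of the 10 m6A genes and of 53 further pathway genes in 8 lists, siNAT10 minus siControl. Filled points passed an adjusted p of 0.05 (orange higher, blue lower), open points did not, and the black bar is the median of the list. Of the writer complex partners 4 of 5 are called higher, and IGF2 (-1.94) is the lowest point.

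Other RNA adenosine methyltransferases changed in part. Of 6 genes, 2 were called higher and none lower (33.3% called, against 40.4% of all tested genes). Their log2 fold changes ran from -0.39 to 0.90, with a median of -0.02. METTL5, which methylates an adenosine of the small ribosomal RNA, rose from 83.2 and 73.1 CPM to 141 and 150 CPM (0.90 ± 0.07, edgeR adjusted p = 1.41e-08), and its activator TRMT112 rose by 0.37 ± 0.08 (adjusted p = 6.26e-04). METTL5 shares 20% of its exonic bases with SSB on the opposite strand. SSB had 11675 and 9587 counts in siControl and 19046 and 17184 in siNAT10, and its part in the METTL5 value was not tested. TRMT112 shares 17.5% of its exonic bases with ESRRA.

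In the supply of the methyl donor S-adenosylmethionine, 1 of 4 genes was called higher and none lower (25% called, against 40.4% of all tested genes). Their log2 fold changes ran from -0.17 to 0.67, with a median of -0.12. AHCY, which clears the product S-adenosylhomocysteine, rose from 46.2 and 46.0 CPM to 71.6 and 75.6 CPM (0.67 ± 0.07, edgeR adjusted p = 3.85e-07). MAT2A, the synthetase whose mRNA is a substrate of METTL16, had 153 and 140 CPM in siControl and 136 and 134 CPM in siNAT10, without passing (-0.12 ± 0.07, adjusted p = 0.163). It was called lower with library totals alone (adjusted p = 0.0111) and without siControl replicate 2 (0.0254).

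Among 10 other proteins described as readers, 6 were called higher and 1 lower (70% called, against 40.4% of all tested genes). The median was 0.28. HNRNPC, which binds tracts opened by the mark, rose from 726 and 678 CPM to 1034 and 1060 CPM (0.58 ± 0.06, edgeR adjusted p = 5.99e-07). HNRNPA2B1, a nuclear RNA-binding protein, rose by 0.48 ± 0.06 and the mitochondrial RNA-binding gene LRPPRC by 0.55 ± 0.07 (adjusted p = 3.19e-06 and 2.38e-06). HNRNPA2B1 overlaps CBX3 on the opposite strand. RBMX, another nuclear RNA-binding protein, was the one called lower. It went from 336 and 322 CPM to 260 and 260 CPM (-0.34 ± 0.06, edgeR adjusted p = 2.54e-04).

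Of 7 other AlkB-family genes, relatives of ALKBH5, 2 were called lower and none higher (28.6% called, against 40.4% of all tested genes). The median was -0.12. ALKBH8, which modifies the wobble base of transfer RNA, fell from 31.2 and 29.0 CPM to 19.2 and 18.7 CPM (-0.66 ± 0.09, edgeR adjusted p = 9.13e-06). ALKBH7, a mitochondrial member, fell by 0.59 on the log2 scale from a low level of 8.22 and 8.78 CPM (adjusted p = 0.00228). Both were below their controls in each library.

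Downstream of YTHDF2, 4 of 13 genes of deadenylation and decay were called higher and 1 lower, with a median of 0.00. The share called, 38.5%, was near the 40.4% of all tested genes. CNOT1, the scaffold of CCR4-NOT that YTHDF2 contacts, had 186 and 177 CPM in siControl and 179 and 178 CPM in siNAT10, without a call (-0.02 ± 0.06, edgeR adjusted p = 0.794). CNOT10, a subunit of the same complex, fell from 39.97 and 44.8 CPM to 25.3 and 25.95 CPM (-0.73 ± 0.09, adjusted p = 1.59e-06). RIDA (HRSP12), which bridges YTHDF2 to an endonuclease, rose by 0.48 ± 0.13 (adjusted p = 0.00751, and 0.0931 without siNAT10 replicate 2, range 0.00229 to 0.0931). CNOT9 (0.28 ± 0.09, adjusted p = 0.0125) lost the call without siNAT10 replicate 2 (0.0852) and with library totals alone (0.119), within 0.0111 to 0.119. The decay helicase gene UPF1 (0.23 ± 0.07, adjusted p = 0.0153) lost it without siControl replicate 1 (0.1), siNAT10 replicate 1 (0.0936) or siNAT10 replicate 2 (0.0626) and with library totals alone (0.199), within 4.29e-04 to 0.199.

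Of 4 nuclear partners of YTHDC1, 1 was called higher and 2 lower (75% called, against 40.4% of all tested genes). SRSF10, a splicing factor, fell from 287 and 298 CPM to 239 and 237 CPM (-0.30 ± 0.06, edgeR adjusted p = 9.26e-04). SRSF3, the splicing and export adaptor, had 141 and 149 CPM in siControl and 147 and 146 CPM in siNAT10, with overlapping groups (adjusted p = 0.881). The export receptor gene NXF1 (0.23 ± 0.09, adjusted p = 0.0499) and the 3′-end processing gene CPSF6 (-0.18 ± 0.07, adjusted p = 0.0427) passed narrowly. NXF1 lost the call in 7 of 11 alternatives, without siControl replicate 2 (0.192), siNAT10 replicate 1 (0.168) or siNAT10 replicate 2 (0.125), with library totals alone (0.318), in DESeq2 (0.119), with no count filter (0.0755) and with the replicate block (0.0567). CPSF6 lost it in 6 of 11, without the same libraries (0.282, 0.152 and 0.226), with RLE scaling (0.0507), in DESeq2 (0.0765) and with the replicate block (0.0507).

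Around IGF2BP2, 2 of 4 genes were called higher and 1 lower (75% called, against 40.4% of all tested genes). IGF2, the growth factor mRNA after which the family is named, had 17.5 and 19.3 CPM in siControl and 5.66 and 3.86 CPM in siNAT10, and fell 3.84-fold (-1.94 ± 0.15, edgeR adjusted p = 3.82e-09). INS-IGF2 shares 15.9% of the exonic bases of IGF2. HMGA2, a chromatin protein known to activate IGF2BP2, was low, with 5.49 and 6.57 CPM in siControl and 4.68 and 6.78 CPM in siNAT10, and the groups overlapped (-0.08 ± 0.18, adjusted p = 0.746). Its relative HMGA1 rose by 0.48 ± 0.06 (adjusted p = 5.74e-06). LIN28B, an RNA-binding protein of early development, was at a low level, with 0.788 and 0.593 CPM in siControl and 1.68 and 1.22 CPM in siNAT10 (1.07 ± 0.34, adjusted p = 0.0174). It lost the call without siControl replicate 2 (0.0995), without siNAT10 replicate 1 (0.154) and in DESeq2 (0.0809), within 0.011 to 0.154.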

How the data were processed

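The mRNA of 4 libraries was measured. The table deposited by the authors holds unnormalized read counts per gene with positions and exonic length. The submitters' processing notes list GRCh38, featureCounts, STAR 2.5.3a and fastp 0.23.4, with no roles. The annotation release, strandedness and any molecular identifiers were not given in the sources used here. Between 72.0% and 73.5% of the counts from 1 to 50 were even. How reads were assigned where 2 rows overlap in their exons was not given either. Such reads may have been counted for both rows, for either or for neither, so an overlap may add reads or remove them. Beside the pairs named with their genes, the overlapping rows were RBM15 with RP5-1074L1.1, CBLL1 with AC002467.7, AHCY with RP4-785G19.5, and RBMX with RAB28P5 and SNORD61. Others were ALKBH7 with PSPN, CNOT10 with CNOT10-AS1 and SUGT1P2, CPSF6 with MIR1279, and IGF2 with AC132217.4 and IGF2-AS. The rest were CNOT1 with SETD6 and RP11-481J2.4, MAT2A with GGCX, HMGA2 with RP11-366L20.2, and IGF2BP1 with RP11-501C14.5 and RP11-501C14.6.

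Counts were tested in R 4.3.3 with edgeR 4.0.16 (filterByExpr, TMM factors, glmQLFit with robust shrinkage, glmQLFTest, two-sided, group only, 2 residual degrees of freedom). The test was first run on simulated counts in which far fewer genes changed than were called here. That run does not measure its error rate on these data. CPM uses TMM-scaled library sizes. On library totals without TMM scaling, a floor of 3 counts equals 0.0825 to 0.0974 CPM, covering counting error only. The alternatives were RLE scaling, totals alone, DESeq2 1.42.0, no count filter, at least 50 counts in 2 libraries, halved counts, a replicate block and each library left out. Replicates differed beyond sampling noise (chi-square per degree of freedom 8.68 and 5.14). The m6A genes and lists were chosen with earlier results of these data known. Named genes were the 10 members, NAT10 and, per list, up to 4 called genes with the smallest adjusted p, or else the one with the largest change. CNOT1, SRSF3, MAT2A, HMGA2, RBM15B, IGF2BP1 and IGF2BP3 were added after their values were seen. Promoter windows came from RefSeq (GRCh38.p14).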

Additional observations from a re-analysis of the deposited data

How the results depend on the processing

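The count of called m6A genes was 2 or 3 of 10 in all 11 alternatives. The number called higher was 1 instead of 2 with library totals alone and in DESeq2, and 1 to 2 when single libraries were left out. The number called lower was 2 instead of 1 with library totals alone. For the other pathway genes, library totals alone gave 12 higher and 16 lower instead of 20 and 7, and leaving out single libraries gave 11 to 18 higher. With library totals alone, 32.4% of all calls were higher, against 48.7%. Among the named genes, signs turned for these uncalled ones: WTAP (2.16e-04 with RLE scaling, 1.73e-04 in DESeq2, -0.0514 to 0.0396 without single libraries), YTHDF2 (-0.0419 with library totals alone, -0.0011 to 0.141 without single libraries), YTHDC1 (-0.0725 with library totals alone, -0.0038 to 0.0829 without single libraries), and, with library totals alone, FTO (-0.0674) and NAT10 (-0.0242). Of those chosen after their values were seen, SRSF3 turned with library totals alone (-0.0964) and from -0.0263 to 0.0558 without single libraries, CNOT1 from -0.0593 to 0.0094 and HMGA2 from -0.362 to 0.174 without single libraries. Nothing in the labels says that equal replicate numbers share a culture, and deviations of same-numbered libraries correlated at -0.03 across genes. With the replicate block, 3 m6A genes, 24 other pathway genes and 8254 of all genes were called. Over the whole table, calls ranged from 6128 to 8292, against 8120. Depth limits genes near 1 CPM, such as LIN28B.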
